A study of Rattus norvegicus with 2 samples.

Results

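Amino acid and neurotransmitter transporter genes were examined in muscle-derived stem cells (MDSC), which are stem cells of skeletal muscle grown in culture. They were taken as every gene of the annotated table whose single symbol belongs to the solute carrier families Slc1, Slc3, Slc6, Slc7, Slc36, Slc38 or Slc43, together with the choline transporter gene Slc5a7. This gave 60 genes, covered by 61 probe sets, of 18489 genes named by 1 symbol. The study set 1 sample of late diabetes MDSC against 1 sample of early diabetes MDSC, each hybridised to its own Affymetrix Rat Gene 1.0 ST array, which reads a transcript in a single colour through many short probes. Both samples came from male obese Zucker rats homozygous for fa, a leptin receptor mutation under which the animals become obese and insulin resistant. Culture medium was Dulbecco's with 20% serum for both samples, and the labels name 5.6 mM and 22 mM glucose for both without saying which sample had which. RNA came from single culture wells, and the labels give neither the age of the rats nor how many animals or wells lie behind an array. The series belongs to work on implanting such cells in a rat model of erectile dysfunction.

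These carriers move amino acids, choline, creatine, taurine and neurotransmitters across cell membranes, most of them driven by sodium, by protons or by exchange for another amino acid. Members of Slc7 called light chains reach the cell surface only in a pair with a heavy chain of Slc3. In muscle cells the carriers supply amino acids for protein synthesis, cystine for the antioxidant glutathione, and the taurine and creatine that muscle stores.

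With 1 array per group the spread between cultures or animals is unknown. No gene was tested, and every statement describes these 2 arrays. Values are the authors' normalized intensities, given on the log2 scale unless called intensities, and differences are late minus early. A gene was compared when its brighter value reached log2 8.03, the middle of the values of all genes in the 2 arrays together. A level of log2 6.81, under which 95% of the values of 1199 olfactory receptor genes lay, served as background. Where the dimmer value lay below it, the fold is the brighter value over that level and is marked "at least". The median intensity over 29214 probe sets was 183 in the late array and 187 in the early array. All 7 measured fibroblast and mesenchymal markers were bright enough to be compared, against 3 of 10 muscle progenitor markers. Pax7, the satellite cell factor, was at 7.38 in late and 7.35 in early, and Myod1, the myoblast factor, at 6.65 in late and 6.85 in early, so these defining markers of muscle stem cells did not reach the floor. Of the 3 compared progenitor markers Itga7, an integrin of muscle, was 2.89-fold lower in late, Des 1.58-fold higher and Met 1.06-fold higher. Of the 4 compared contractile genes of skeletal muscle, Myh2 was at least 12.5-fold and Myh1 3.01-fold lower. The other contractile genes compared, Ckm and Acta1, differed by -0.21 and 0.11. All 5 smooth muscle markers were lower in late by less than 2-fold. Of the 7 fibroblast and mesenchymal markers, 5 were lower in late, the collagen gene Col3a1 by 2.11-fold, and 2 were higher. The part of these marker differences in the transporter differences was not tested. In RNA from a whole culture, fewer cells of a type and less RNA per cell cannot be told apart.

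Of the 60 transporter genes, 28 reached the floor (46.7%), against 52.7% of all genes. Among these 28, 6 were higher in late by 2-fold or more, against 5.84% of all 9738 compared genes, and 1 was lower by as much, against 3.11%. In either direction this makes 7, against 8.95% of all compared genes. At a limit of 1.5-fold, 8 were higher, against 12.1%, and 2 were lower, against 6.48%. The 6 higher genes were Slc6a15, Slc5a7, Slc38a4, Slc7a2, Slc1a3 and Slc7a11, and the lower one was Slc6a6. Of the higher genes, 5 reached the floor in the late array only, and a gene that passes in this way has to be higher there. Slc7a8 also passed only through the late array, and no transporter gene passed only through the early array. Of all compared genes, 5.91% passed through late only and 4.22% through early only. Of all 576 late-only genes, 271 were higher by 2-fold or more. Among the 22 transporter genes that reached the floor in both arrays, 1 was higher by 2-fold or more and 1 lower, against 298 and 185 of all 8751 such genes. Without any filter, 6 of 60 transporter genes (10%) passed 2-fold upward, against 3.59% of all genes, and 1 of 60 (1.67%) downward, against 1.86%. Over the 28 compared genes the median difference was 0.21, against 0.06 over all compared genes. Over all 60 it was -0.073, against -0.041 over all genes, so the sign of the list's median depended on the filter.

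**Figure D1:**
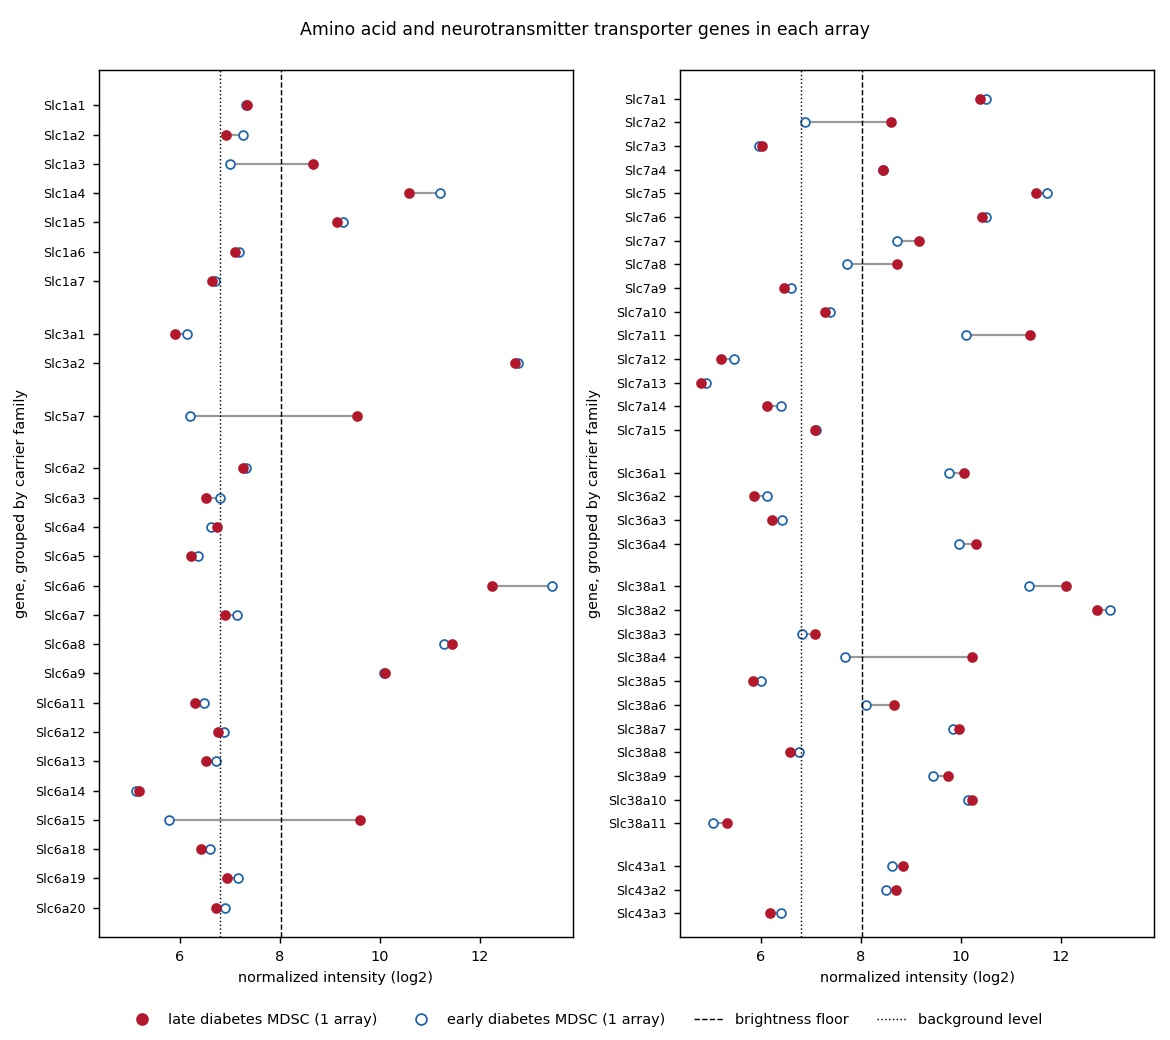
Normalized log2 intensity (x axis) of 59 transporter genes (y axis, by carrier family) in the late array (filled red) and the early array (open blue), 1 array each; the dashed line is the brightness floor of 8.03 and the dotted line the background level of 6.81. Slc6a15 and Slc5a7 lie above the floor in the late array and below the background level in the early array.

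The heavy chain of the heterodimeric carriers was nearly level while its light chains spread. Slc3a2, which encodes the CD98 heavy chain, had an intensity of 6646 in the late array and 6984 in the early array, a difference of -0.07. Slc3a1, the heavy chain of kidney and gut known to pair with the Slc7a9 light chain, was below background in both arrays, at 5.91 in late and 6.15 in early. Slc7a9 was also below it, at 6.47 in late and 6.60 in early. Both genes of this pair were therefore at background in these cells.

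Slc7a11, the light chain xCT that imports cystine in exchange for glutamate, had an intensity of 2679 in the late array and 1100 in the early array. It was 2.44-fold higher in the late array, and both values lay well above the floor. Of 2033 compared genes whose mean lay within 0.5 of that of Slc7a11 on the log2 scale, 44 were at least as much higher, Slc7a11 included. Slc7a8, which encodes LAT2, an exchanger of neutral amino acids, had an intensity of 424 in the late array and 212 in the early array. This lay just under the 2-fold limit, and Slc7a8 was counted at 2-fold once the arrays were centred on their medians. Slc7a7, the light chain y+LAT1 that exchanges cationic for neutral amino acids, was at 9.16 in the late array and 8.71 in the early array, a difference of 0.45.

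The other compared light chains were lower in the late array by small amounts. Slc7a5, which encodes LAT1, the main importer of leucine and other large neutral amino acids in growing cells, was at 11.50 in late and 11.73 in early, a difference of -0.22. Slc7a6, which encodes y+LAT2, was at 10.41 in late and 10.49 in early. Both differences were no larger than the SD of 0.22 between probe sets of the same gene, taken over 409 genes, which covers probe error only. Slc7a10, the carrier Asc-1 of small neutral amino acids, was under the floor at 7.29 in late and 7.39 in early. Slc7a12, Slc7a13 and Slc7a15 were under the floor as well.

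The promoter of Slc7a11 is shown because this gene had the largest difference of the light chains. RefSeq promoter windows of 300 bases around the annotated gene start (rat build GRCr8) were found for 45 of the 60 genes. They were searched on both strands for TGATGNAA, the core of the C/EBP-ATF element through which amino acid shortage acts, and for TGACNNNGC, the core of the antioxidant response element. The 2 motifs are different strings whose matches could overlap. A match describes letters only, and capitals mark it in the sequences shown here. The window of Slc7a11 (chr2:136668215-136668514, minus strand) held neither string.
Slc7a11: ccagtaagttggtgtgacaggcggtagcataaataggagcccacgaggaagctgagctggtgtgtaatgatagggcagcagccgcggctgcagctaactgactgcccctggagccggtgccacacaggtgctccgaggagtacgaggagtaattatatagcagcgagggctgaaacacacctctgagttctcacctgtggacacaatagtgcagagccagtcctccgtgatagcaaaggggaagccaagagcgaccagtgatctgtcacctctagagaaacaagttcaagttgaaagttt

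TGATGNAA was present in 3 of the 45 windows (6.67%), those of Slc1a4, Slc38a1 and Slc7a1, and in 3.84% of all 27457 windows. TGACNNNGC was present in 9 of the 45 (20%), 6 of them windows of compared genes, and in 12.2% of all windows. The median GC content was 56.3% over the 45 windows and 52.3% over all windows. The part of GC content in these shares was not tested. Slc1a4 was lower and Slc38a1 higher in the late array, so the genes with the first string did not share a direction.

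Of the cationic amino acid carriers, which bring arginine and lysine into cells, Slc7a2 was higher in the late array and the widely expressed Slc7a1 was not. Slc7a2, known in rodents as the carrier that macrophages induce to supply arginine for nitric oxide synthesis, had an intensity of 387 in the late array and 118 in the early array, a 3.29-fold difference. Its early value of log2 6.88 stood just above the background level. Slc7a1, the general arginine carrier CAT1, was at 10.38 in late and 10.50 in early. Slc7a4 had the same deposited value in both arrays, an intensity of 346, as did 169 of the 29214 probe sets. Slc7a3 and Slc7a14 were below background in both arrays.

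White blood cell markers stood beside the Slc7a2 result as follows. Of 8 markers, 2 were compared, Cd68 at 8.12 in late and 6.77 in early and Cd14 at 9.57 in late and 8.81 in early. Csf1r, a macrophage growth factor receptor, was under the floor at 7.91 in late and 7.01 in early. Their summed intensity over all 8 was 1557 in the late array and 986 in the early array, and 5 of the 8 were below background in both. Among these was Ptprc, the common leukocyte antigen, at 5.84 in both arrays. The part of such cells in the Slc7a2 difference was not tested.

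The System A carriers, sodium-driven importers of small neutral amino acids such as alanine and glutamine, lie next to each other on rat chromosome 7 with 0 other protein-coding genes between them, and they differed in direction. Slc38a4 had an intensity of 1189 in the late array and 207 in the early array, a 5.76-fold difference. Slc38a1 had 4398 in the late array and 2613 in the early array, a 1.68-fold difference. Slc38a2, the System A form known to be induced by amino acid shortage, had 6762 in the late array and 8042 in the early array, a difference of -0.25. Only Slc38a4 of these 3 genes was below the floor in the early array.

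The promoter windows of these neighbours are set side by side because the genes share a locus and differ in direction. All lie on the minus strand of GRCr8, Slc38a1 at chr7:129681352-129681651, Slc38a2 at chr7:129742570-129742869 and Slc38a4 at chr7:130082120-130082419. That of Slc38a1 held TGATGNAA, that of Slc38a2 held TGACNNNGC, and that of Slc38a4 held neither. GC content was 68% for Slc38a1, 72.3% for Slc38a2 and 52% for Slc38a4, against a median of 52.3% over all windows. The window of Slc38a4 also had 6 CG dinucleotides, against 24 for Slc38a1 and 34 for Slc38a2.
Slc38a1: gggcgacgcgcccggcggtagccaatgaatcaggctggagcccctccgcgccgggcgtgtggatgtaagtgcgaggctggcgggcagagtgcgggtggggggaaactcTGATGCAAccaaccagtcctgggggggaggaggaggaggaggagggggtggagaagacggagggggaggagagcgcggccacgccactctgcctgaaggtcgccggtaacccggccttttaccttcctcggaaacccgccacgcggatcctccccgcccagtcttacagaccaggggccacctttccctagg
Slc38a2: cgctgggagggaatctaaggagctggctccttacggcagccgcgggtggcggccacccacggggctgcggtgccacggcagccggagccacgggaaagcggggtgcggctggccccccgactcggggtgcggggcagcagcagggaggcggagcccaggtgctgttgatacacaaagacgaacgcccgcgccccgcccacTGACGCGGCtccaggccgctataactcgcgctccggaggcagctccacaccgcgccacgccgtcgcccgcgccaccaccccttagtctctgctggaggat
Slc38a4: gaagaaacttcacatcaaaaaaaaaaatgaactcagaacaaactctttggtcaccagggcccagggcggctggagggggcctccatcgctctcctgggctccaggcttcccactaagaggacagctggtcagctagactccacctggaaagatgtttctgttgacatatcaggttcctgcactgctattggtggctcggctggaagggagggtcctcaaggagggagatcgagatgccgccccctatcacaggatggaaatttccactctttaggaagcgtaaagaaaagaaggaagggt

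The remaining Slc38 genes differed little. Slc38a9, the lysosomal arginine sensor of the growth kinase complex mTORC1, was at 9.74 in late and 9.45 in early, and Slc38a7, a lysosomal glutamine exporter, at 9.96 in late and 9.84 in early. Slc38a10 was at 10.23 in late and 10.14 in early. Slc38a6 was at 8.65 in late and 8.09 in early, 1.48-fold higher. The System N carrier genes of glutamine and histidine were under the floor, Slc38a3 at 7.07 in late and 6.82 in early and Slc38a5 at 5.84 in late and 6.01 in early. Slc38a8 and Slc38a11 were below background in both arrays.

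In the Slc1 family the glutamate carrier gene Slc1a3 and the neutral amino acid carrier gene Slc1a4 differed in opposite directions. Slc1a3, which encodes GLAST, the glutamate and aspartate importer known from astrocytes, had an intensity of 407 in the late array and 128 in the early array, a 3.19-fold difference. In the early array its log2 value of 6.99 stood just above the background level. Slc1a4, the exchanger ASCT1 of alanine, serine and cysteine, had 1536 in the late array and 2362 in the early array, a difference of -0.62 or 1.54-fold lower. Slc1a5, the glutamine carrier ASCT2, was at 9.15 in late and 9.27 in early. The other glutamate carriers were under the floor, Slc1a1 at 7.34 in late and 7.33 in early, Slc1a2 at 6.92 in late and 7.26 in early, and Slc1a6 at 7.11 in late and 7.18 in early. Slc1a7 was below background. The 2 probe sets of Slc1a1, the only transporter gene with more than 1, gave differences of 0.09 and -0.07.

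Glial markers were dim beside the Slc1a3 result: 0 of 7 reached the floor. Their summed intensity was 962 in the late array and 951 in the early array. Gfap, an intermediate filament of astrocytes, was at 6.39 in late and 6.91 in early, and S100b, a calcium-binding protein of glia, was at 7.93 in late and 6.72 in early. The part of glial cells in the Slc1a3 difference was not tested.

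The Slc6 family, sodium and chloride driven carriers, held differences past 2-fold in both directions. Slc6a15, a carrier of branched chain amino acids and proline known mainly from brain neurons, had an intensity of 778 in the late array and 54.9 in the early array. Its early value of log2 5.78 lay below background, so it was at least 6.95-fold higher in late, and no exact fold can be read. Slc6a6, the taurine carrier, had 4858 in the late array and 11069 in the early array, 2.28-fold lower. Large differences were rare among genes as bright: of 391 compared genes within 0.5 of its mean on the log2 scale, 3 were lower in late by 2-fold or more, and none was lower by more than Slc6a6.

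The promoter window of Slc6a6 (chr4:125752252-125752551, plus strand) is shown because this was the only transporter gene at least 2-fold lower. It held 1 match of TGACNNNGC, on the opposite strand, and none of TGATGNAA.
Slc6a6: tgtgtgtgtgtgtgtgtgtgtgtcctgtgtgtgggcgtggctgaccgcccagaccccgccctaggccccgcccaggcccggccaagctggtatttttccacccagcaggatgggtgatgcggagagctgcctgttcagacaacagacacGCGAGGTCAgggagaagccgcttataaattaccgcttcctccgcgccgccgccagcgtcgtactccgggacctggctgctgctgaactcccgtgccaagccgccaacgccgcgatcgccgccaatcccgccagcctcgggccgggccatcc

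The other Slc6 genes that reached the floor were those of a creatine carrier and a glycine carrier. Slc6a8, the creatine carrier through which muscle takes up creatine, was at 11.45 in late and 11.28 in early. Slc6a9, the glycine carrier GlyT1, was at 10.10 in late and 10.08 in early, and the neuronal glycine carrier gene Slc6a5 was below background. The monoamine carrier genes were all under the floor: Slc6a2, for noradrenaline, at 7.26 in late and 7.32 in early, Slc6a3, for dopamine, at 6.52 in late and 6.81 in early, and Slc6a4, for serotonin, at 6.74 in late and 6.62 in early. Slc6a11 and Slc6a13, for the inhibitory transmitter GABA, were below background in both arrays. Slc6a11 was at 6.30 in late and 6.49 in early, and Slc6a13 at 6.52 in late and 6.73 in early. Slc6a12, for betaine and GABA, was under the floor at 6.77 in late and 6.89 in early, and its early value lay above background. Slc6a7, Slc6a14, Slc6a18, Slc6a19 and Slc6a20 were under the floor.

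Slc5a7 encodes the high-affinity choline transporter, which refills cholinergic nerve endings with choline for making acetylcholine. Its intensity was 749 in the late array and 74.2 in the early array, and since the early value lay below background it was at least 6.68-fold higher in late. The other defining genes of cholinergic neurons were below background in both arrays: Chat, the enzyme that makes acetylcholine, was at 6.37 in late and 6.64 in early, and Slc18a3, which loads it into vesicles, was at 6.03 in late and 6.41 in early. All 7 vesicular transmitter transporter genes were under the floor. Of 9 neuron markers 2 were compared, Stmn2 at 11.50 in late and 12.27 in early and Tubb3 at 9.69 in late and 9.35 in early. The summed intensity of the 9 was 4391 in the late array and 6350.3 in the early array, and without Stmn2 it was 1498 in late and 1424 in early. The part of nerve cells in the Slc5a7 difference was not tested. Of the Slc44 family, the general choline carrier genes Slc44a1 and Slc44a2 were bright. Slc44a1 was at 11.17 in late and 10.68 in early, and Slc44a2 at 9.72 in late and 10.53 in early. Slc44a3 and Slc44a4 of that family were under the floor, at 6.75 and 6.69 in late and 6.97 and 6.76 in early.

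The 4 compared genes of the proton-coupled and System L4 carriers showed small differences, each toward a higher value in late. Slc36a1, a lysosomal exporter of small amino acids, was at 10.06 in late and 9.76 in early, and Slc36a4, a high-affinity carrier of proline and tryptophan, at 10.31 in late and 9.95 in early. Slc43a1 and Slc43a2, facilitated carriers of branched chain amino acids, had differences of 0.22 and 0.19. Slc36a2, Slc36a3 and Slc43a3 were below background in both arrays. Slc36a3, Slc36a2 and Slc36a1 are neighbours on chromosome 10, and of these only Slc36a1 was above the background level.

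**Figure D2:**
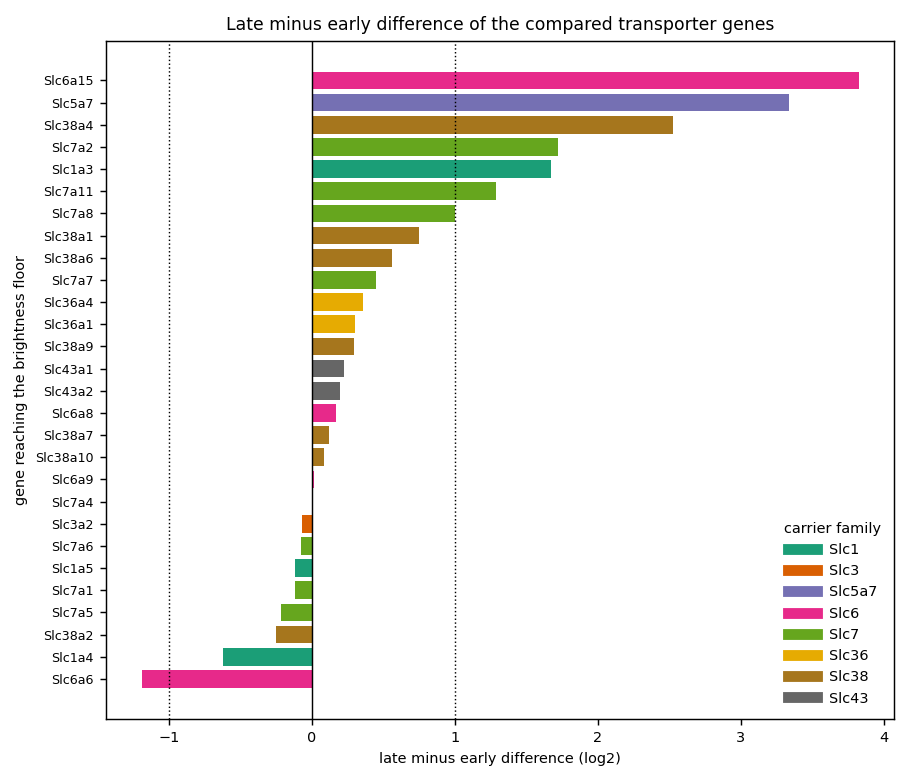
Late minus early difference (log2, x axis) of the 28 transporter genes that reached the brightness floor (y axis), 1 bar per gene coloured by carrier family, 1 array per group; dotted lines mark differences of 1 and -1. Slc6a15, Slc5a7 and Slc38a4 extend furthest to the right, the first 2 from early values below background, and Slc6a6 alone passes -1.

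Of the 32 transporter genes under the floor, 20 lay below background in both arrays. Their differences ran from -0.34 to 0.29 with a median of -0.17, and in 26 of them (81.2%) late was the lower array. Over all 8751 genes under the floor the median was -0.11, and late was lower in 70.8%. Dim genes of these arrays thus leaned toward lower values in late as a whole, the transporter genes among them.

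The plot of difference against brightness places the transporter genes among all compared genes. Of the 5 genes past 2-fold that reached the floor in late only, Slc1a3, Slc5a7, Slc6a15 and Slc7a2 have a mean below the floor. The mean of Slc38a4 is 8.95, and Slc7a11 and Slc6a6 lie among brighter genes. Large differences were more frequent at lower brightness: within 0.5 of the mean of Slc38a4, 181 of 2660 genes were higher in late by 2-fold or more, and within 0.5 of that of Slc6a6, 2 of 391 were. Another 248 solute carrier genes had symbols built as Slc, a number, the letter a and a number, and symbols of another form were not counted. Of the 248, 118 were compared. Of these, 7 (5.93%) were higher in late by 2-fold or more and 3 (2.54%) lower, against the same 5.84% and 3.11% of all compared genes. The difference between these shares and those of the transporter genes was not tested.

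**Figure D3:**
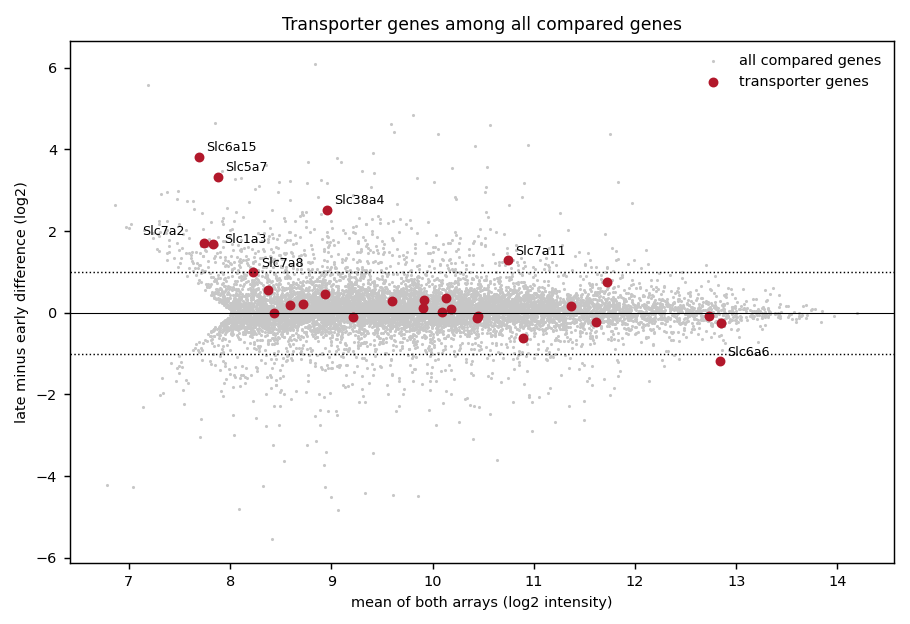
Late minus early difference (log2, y axis) against the mean log2 intensity of both arrays (x axis) for all 9738 compared genes (grey) and the 28 transporter genes (red), with dotted lines at differences of 1 and -1. Named genes have a difference of about 1 or more in either direction, and Slc6a6 is the lowest point in its range of brightness.

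Genes of the amino acid response, which cells switch on through the factor ATF4 when amino acids run short, were mostly lower in the late array. Of 21 compared genes, 19 had their lower value there (90.5%), against 42.6% of all compared genes. By 2-fold or more 4 of the 21 were lower, against 3.11% of all compared genes, and 0 were higher, against 5.84%. Their median difference was -0.48. Nupr1, a stress-induced nuclear protein, had an intensity of 742 in the late array and 5511 in the early array, 7.43-fold lower. Atf5, a factor of the same response, was 2.25-fold lower, Trib3, an ATF4-induced pseudokinase, 2.04-fold lower and Pycr1, an enzyme of proline synthesis, 2.01-fold lower. Asns, the asparagine synthetase gene, was at 12.11 in late and 12.59 in early, and Atf4 itself at 11.23 in late and 11.71 in early. Cebpb was the highest member, at 9.45 in late and 8.96 in early. Several transporter genes are known ATF4 targets, and they were picked here with their values in view. Of these, Slc7a11 was higher in the late array, while Slc3a2, Slc7a5, Slc7a1, Slc38a2 and Slc1a4 had differences of -0.07, -0.22, -0.12, -0.25 and -0.62.

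Slc7a11 imports the cystine that glutathione synthesis uses. Genes of glutathione synthesis and turnover differed by less than 1.5-fold in all 6 compared cases, as did 81.4% of all compared genes. Of the 6, 5 were higher in late, against 57.3% of all compared genes, and the median was 0.30. Gss, which completes glutathione, was at 11.20 in late and 10.76 in early, and Gclc, a subunit of the first enzyme, at 11.67 in late and 11.63 in early. The lowest was Ggt7, of the gamma-glutamyltransferase family, at 7.96 in late and 8.49 in early. Among glutamate and glutamine enzymes, 0 of 6 compared genes were 2-fold apart, against 8.95% of all compared genes. Got2, a mitochondrial transaminase, was at 12.30 in late and 11.86 in early.

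Genes of amino acid sensing by mTORC1 had a median of 0.01 over 18 compared members, with 0 at least 2-fold apart. This count and those of the next lists stand against 8.95% of all compared genes. Sesn3, a stress-induced inhibitor of the pathway, was at 9.52 in late and 10.39 in early, and Mtor, the kinase, at 10.40 in late and 9.85 in early. Enzymes of branched chain amino acid, arginine, creatine and taurine metabolism had a median of -0.12 over 14 compared genes with 0 at least 2-fold apart. Cdo1, an enzyme on the way from cysteine to taurine, was 1.64-fold higher in the late array at 8.27, against 7.56 in early, and Csad, the next enzyme, was at 8.08 in late and 8.31 in early. The creatine kinase gene Ckb was the lowest, at 10.15 in late and 10.73 in early. Of 11 compared genes of other amino acid, peptide and vitamin carriers, 0 were at least 2-fold apart. Pqlc2, a lysosomal exporter of cationic amino acids, was 1.95-fold higher in the late array, and Ctns, the lysosomal cystine exporter, was 1.83-fold lower.

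**Figure D4:**
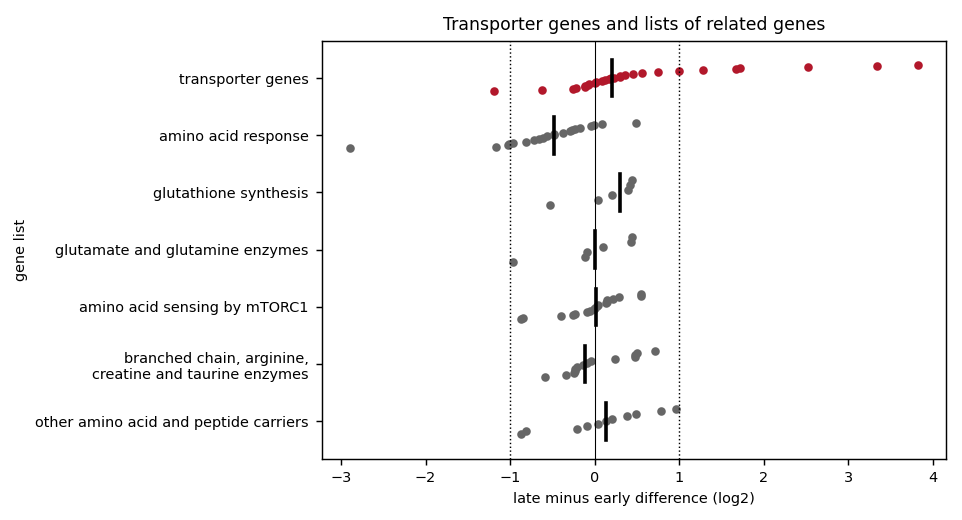
Late minus early difference (log2, x axis) of each compared gene in the transporter genes (red) and in 6 lists of related genes (grey, y axis), with black bars at the list medians and dotted lines at 1 and -1, 1 array per group. The amino acid response list lies mostly left of 0 with a median of -0.48. The points furthest to the right are Slc6a15, Slc5a7 and Slc38a4. These reached the brightness floor in the late array only, so they had to be higher there, and Slc6a15 and Slc5a7 had early values below background. The list labelled glutathione synthesis also holds genes of glutathione turnover.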

How the data were processed

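The values deposited by the authors are normalized intensities, linear rather than logged, in an annotated table and a value table that were identical for all 29214 probe sets. How background was corrected, probes summed and arrays normalized, and with which software and genome build, is not given in any source used here. Of the probe sets, 20164 named 1 gene, 328 several and 8696 none, and 26 had a symbol damaged by a spreadsheet. The log2 of each intensity was taken with no pseudocount, and probe sets naming the same single gene were averaged. The number of arrays limits the precision, and p-values, SE and SD between samples cannot be given with 1 array per group.

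The transporter genes were found by symbol. Every one is named or counted, some items are not reported here, and related lists give up to 4 genes, mostly their highest and lowest compared members. A few further genes, such as Atf4, Asns, Gclc, Csad, Slc44a1, Slc44a2 and the ATF4 target carriers, were named with their values in view. The members, lists and background level were chosen with earlier results of these data known. Symbols were matched to RefSeq (GRCr8): 59 were current and 1 an older name. List genes without a match are not analysed here. The calling step was tested on simulated data with changes larger than the threshold, set in brighter genes only. This checks the code and cannot check the calls made on these arrays. Alternatives were other brightness filters, fold thresholds, scalings, a pseudocount of 16 and the brightest probe set. Python 3.11.15, numpy 2.4.6, pandas 2.3.3 and statsmodels 0.14.6 were used.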

Additional observations from a re-analysis of the deposited data

How the results depend on the processing

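No paired analysis was possible because each group has 1 array, and no array could be left out. The 7 transporter genes at least 2-fold apart stayed the same 7 with no brightness filter, with the background filter, quantile normalization and a pseudocount of 16. The series matrix value table, which is identical, and the brightest probe set, which touches only Slc1a1 among the transporter genes, could not change these calls. Slc7a8 joined them with median centring and with a lowess trend removed (span 0.3). The 75th percentile filter left 16 transporter genes, of which 2 were higher, since Slc1a3, Slc5a7, Slc6a15 and Slc7a2 are dimmer than that. With it 280 of the 5103 genes then compared were higher and 177 lower. At 1.5-fold 8 of 28 transporter genes were higher and 2 lower, against 1177 and 631 of 9738 compared genes, adding Slc38a1, Slc7a8 and Slc1a4. At 3-fold 5 of the 28 were higher and 0 lower, against 237 and 129 of 9738 compared genes, as Slc7a11 and Slc6a6 dropped out. The median difference of the transporter genes, 0.21 in the main setting, was 0.05 with the 75th percentile filter and 0.01 with the background filter. With no filter it was -0.073, because the genes then added are dim and lean lower. Quantile normalization gave 0.14, median centring 0.24 and removal of the lowess trend 0.18. With the pseudocount the measured differences of Slc5a7 and Slc6a15 shrank to 3.08 and 3.49, and no other transporter gene moved by more than the SD of 0.22 between probe sets under any alternative. The early values of Slc5a7 and Slc6a15 lie below background, so only their lower bounds can be read.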

Other observations

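Of the counted solute carriers outside the families described, whose symbols carry the letter a after the family number, 7 of 118 compared genes were higher in late by 2-fold or more. Besides the lactate exporter gene Slc16a3 (12.32 in late, 8.76 in early) these were Slc11a1, a metal transporter of phagosomes (9.96 in late, 6.99 in early), Slc4a4, a sodium bicarbonate carrier (8.76 in late, 6.70 in early), Slc25a37, the mitochondrial iron importer mitoferrin (10.08 in late, 8.63 in early), Slc25a10, a mitochondrial dicarboxylate carrier (10.74 in late, 9.44 in early), Slc2a1, the glucose transporter GLUT1 (12.53 in late, 11.33 in early), and Slc26a2, a sulfate carrier (10.41 in late, 9.28 in early). Slc11a1 is known from macrophages. Of 8 white blood cell markers, Cd68 was at least 2.49-fold, Cd14 1.69-fold and Csf1r 1.86-fold higher in late, and 5, Ptprc among them, were below background in both arrays. The part of such cells in the Slc11a1 difference was not tested.

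The lower ones were 3. Slc24a3, a sodium, potassium and calcium exchanger, was at 7.28 in late and 9.01 in early. Slc29a1, a nucleoside carrier, was at 10.67 in late and 12.03 in early. Slc16a4, of the monocarboxylate carrier family, was at 8.24 in late and 9.63 in early.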
